A study of Mus musculus with 14 samples.

Results

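The 4 libraries described here came from GFP-negative cells, sorted from the mouse cerebral cortex as non-astrocytes, and they were set against the 4 libraries of bulk cortex, 8 of the 14 libraries of the study. They were chosen by their sample titles alone, with 2 upper layer and 2 deep layer libraries in each group. All mice were of the SW strain, were 14 days old and carried Aldh1l1-GFP, a transgene in which the promoter of the astrocyte gene Aldh1l1 drives green fluorescent protein. Layers were separated by hand. For the non-astrocytes the tissue was digested with papain, broken up by pipetting and stained with DAPI, a dye that enters dead cells. Live cells without GFP were then collected on a flow sorter. Bulk tissue was RNA from whole dissected layers. The remaining 6 libraries, 3 from each layer, were the GFP-positive astrocytes that went through the same digestion and sort, and they are used below only as a check. The comparison asks which cell types and functions a papain-and-sort preparation loses, keeps or concentrates relative to intact tissue. Digestion, sorting and removal of astrocytes always occurred together, so their effects cannot be told apart.

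The cortex holds excitatory neurons and inhibitory interneurons, astrocytes, cells of the oligodendrocyte lineage, microglia, and the endothelial cells, mural cells and fibroblasts of blood vessels and meninges. Neurons carry much of their cytoplasm in long axons and dendrites, whereas microglia and vessel cells are more compact. Immediate early genes are transcribed within minutes of a stimulus. In neurons they follow synaptic activity, and in many other cells they follow stress, injury or ligands of innate immune receptors.

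The 8 libraries had between 23266097 and 30316765 reads in genes. Deposited values were read counts per gene divided by 1 size factor per library, called normalised read counts here. Over 21756 genes tested, Pearson correlations of log2 values ran between 0.962 and 0.983 among non-astrocyte libraries, between 0.969 and 0.981 among bulk libraries, and between 0.780 and 0.813 across the groups. Mitochondrially encoded genes took 3.04 to 6.46% of the reads in non-astrocytes and 5.66 to 7.13% in bulk tissue, and the single transcript Gm42418, which overlaps a ribosomal RNA repeat, took 6.25 to 8.22% in non-astrocytes and 10.1 to 16.3% in bulk tissue. The Y-linked gene Eif2s3y stood between 1057 and 1388 in the non-astrocyte libraries and at 658 and 615 in the bulk libraries numbered 2, but at 6.45 and 12.9 in the bulk libraries numbered 1. Xist, expressed from the inactive X chromosome of females, stood between 45098 and 62387 in the non-astrocyte libraries, at 22274 and 18110 in the bulk libraries numbered 2, and at 44916 and 39717 in those numbered 1. The non-astrocyte libraries and the bulk libraries numbered 2 thus held RNA of both sexes, and the bulk libraries numbered 1 had Y-linked levels near 0. The titles number the libraries without saying whether they came from separate animals, so every p-value below measures the spread between these libraries, which may be technical.

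Most of the transcriptome differed. With limma on log2(normalised read count + 1), with layer as a term and Benjamini-Hochberg adjustment, 14220 of 21756 genes (65.4%) passed an adjusted p of 0.05, 7050 of them higher in non-astrocytes (32.4% of genes tested) and 7170 lower (33.0%). At least 16-fold differences were found for 438 higher and 469 lower genes. All fold changes are on this log2 scale, which understates changes of genes with few reads. The median difference over all genes was -0.04. Where each library was scaled to its total reads instead, all differences moved up by 0.37 at the median and 9379 of 14652 called genes (64.0%) were higher, against 49.6% with the deposited scaling. Directions of small differences therefore depend on the scaling. At the other end, 6797 genes (31.2%) had a 95% confidence interval that lay wholly within 2-fold. In bulk RNA, fewer cells of a type and less RNA per cell cannot be told apart, and this holds for every result below. Whether reads were counted by strand is not stated, which leaves genes that share exon sequence uncertain: beside those marked below, P2ry12 overlaps Med12l, Alas2 overlaps Apex2, Ciita overlaps Dexi, Ddit3 overlaps Mars, Pfkm overlaps Senp1, Gria2 overlaps Gm25749, Sox4 overlaps Gm26735, Rps2 overlaps Snhg9, Gadd45a overlaps E230016M11Rik, Col5a1 overlaps Gm13372, Rian overlaps Gm27350 and mt-Co3 overlaps mt-Atp6.

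**Figure D1:**
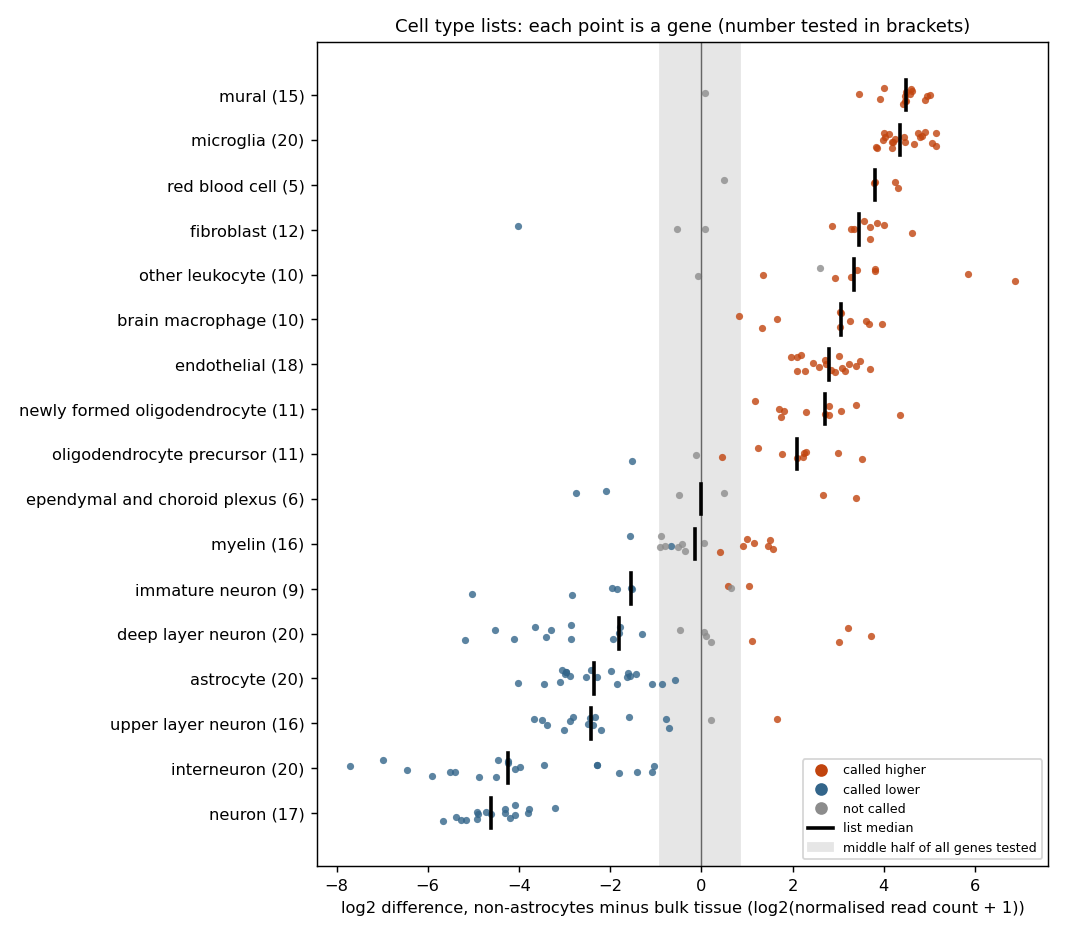
Log2 difference between non-astrocytes and bulk tissue (x axis, log2(normalised read count + 1)) for the tested members of 17 cell type lists, 1 point per gene, with the list's median as a bar and the middle 50% of all genes tested as a grey band. Microglia, mural and endothelial markers lie to the right, with medians of 4.35, 4.50 and 2.80, and neuron and interneuron markers to the left, with medians of -4.62 and -4.24.

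Microglia, the resident phagocytes of the brain, were strongly concentrated. All 20 microglial markers were higher in non-astrocytes, against 32.4% of all genes, with a median log2 difference of 4.35. Their summed level was 271710 to 387030 in the non-astrocyte libraries and 12971 to 15207 in bulk tissue. Cx3cr1, the receptor for the neuronal chemokine fractalkine, stood at 23545 and 33828 in upper layer and 26838 and 33142 in deep layer non-astrocytes, against 1496 and 1679 in upper layer and 1655 and 1481 in deep layer bulk tissue. Every non-astrocyte library was far above every bulk library, and the difference was 4.20 ± 0.14 (log2 ± SE, 18.4-fold, adjusted p = 1.57e-11 by limma). P2ry12, the ADP receptor that guides microglial processes, was 35.5-fold higher, and Itgam, the integrin chain CD11b, 26.9-fold. Fcrls, an Fc receptor-like protein (5.07), Siglech, a sialic acid-binding lectin (4.46), Ctss, the lysosomal protease cathepsin S (4.80), and Ptprc, the leukocyte common antigen CD45 (5.15), differed by similar log2 amounts. Sall1, a transcription factor of microglial identity, was 3.83 higher.

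C1qc encodes a chain of C1q, the first component of the complement cascade. Its 4 non-astrocyte values were 6838, 12016, 8258 and 9466 (upper layer first, as in every set of 4 values below), against 469, 515, 485 and 584 in bulk tissue, without overlap (4.13 ± 0.16 on the log2 scale, adjusted p = 5.63e-11). Its promoter is printed because it carries GAGGAAGT, a site type for PU.1, the transcription factor on which microglia depend. The motif was chosen after the values were seen, was searched on both strands in the 250 bases before each gene's start, and lies in capitals below, as its reverse complement, starting 195 bases before the start of C1qc. The stretch is chr4:136892915-136893164 on the minus strand (GRCm38.p6, RefSeq).
C1qc: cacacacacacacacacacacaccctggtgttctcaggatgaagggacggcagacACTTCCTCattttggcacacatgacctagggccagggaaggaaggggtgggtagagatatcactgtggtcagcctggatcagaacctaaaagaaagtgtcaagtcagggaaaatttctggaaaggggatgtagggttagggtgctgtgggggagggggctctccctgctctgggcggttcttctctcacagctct
This word was found in 382 of 13375 tested genes with a promoter sequence (2.86%), in 22 of 291 that were at least 16-fold higher (7.56%) and in 6 of 312 that were at least 16-fold lower (1.92%). A match describes letters and is not evidence of binding.

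Other immune cells followed. The 10 markers of brain macrophages, which live along vessels and in the meninges, were all higher (median 3.06). Mrc1, the mannose receptor CD206, stood at 1375, 1818, 1539 and 1524 in non-astrocytes, against 96.8, 92.2, 148 and 70.2 in bulk tissue (15.7-fold, adjusted p = 6.61e-10). Stab1, a scavenger receptor whose exons overlap Nt5dc2 (3.69), Maf, a macrophage transcription factor (3.07), and F13a1, a clotting factor chain (3.04), were higher too. Of 14 markers of blood leukocytes 10 reached the minimum level and 8 were higher, none lower, against 32.4% of all genes higher. Their sum in bulk tissue was only 88.1 to 115. Members under 10 in bulk tissue could be tested only through the non-astrocytes, so the count describes these members. It was 6 in upper and 5 in deep layers alone, and 6 with the layers of a number averaged. With values of at least 50 in 4 libraries required, 2 were tested and 2 higher. Ccr2, a monocyte chemokine receptor, was 2.93 higher on the log2 scale, and the T cell receptor component Cd3e was 3.42 higher at levels of only 12.3 to 36.8 in non-astrocytes and 0 to 5.01 in bulk tissue.

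2 neutrophil genes, chosen after their values were seen, split the non-astrocyte libraries by number. S100a9, which encodes part of calprotectin, stood at 56.1 and 3113 in upper layer and 54.2 and 2696 in deep layer non-astrocytes, against 1.84, 4.01, 2.35 and 1.85 in bulk tissue. S100a8, its partner, had the same split, with 39.9, 1860, 28.3 and 1633 in non-astrocytes and 4.61, 6.01, 1.17 and 2.77 in bulk tissue. The non-astrocyte libraries numbered 2 were thus far above those numbered 1 in both layers, and neither gene was called when the layers of a number were averaged (2 means against 2). Red blood cell genes divided the same way: Hba-a2, an alpha globin gene with a near-identical copy and therefore uncertain, stood at 1075, 4112, 1510 and 4645 in non-astrocytes, against 199, 68.1, 204 and 67.4 in bulk tissue. Of 5 red cell genes 4 were higher, while Alas2, the erythroid haem synthesis enzyme, missed the threshold (0.49, adjusted p = 0.178). The beta globin genes Hbb-bs (3.80) and Hbb-bt (3.79) and the other alpha globin copy Hba-a1 (4.26) were the remaining calls. Leaving out the upper or the deep layer non-astrocyte library numbered 2 left 2 of the 5 called, and 1 was called in either layer alone or with the layers of a number averaged. Other lists differed by number too. The mean log2 level of cell cycle genes was 7.56, 8.30, 7.69 and 8.42 in non-astrocytes. For myelin genes it was 9.50, 8.64, 10.87 and 10.06, with the libraries numbered 1 higher.

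Vessel cells were concentrated as well. All 18 endothelial markers were higher (median 2.80), their sum running between 62932 and 90705 in non-astrocytes and between 9914 and 12135 in bulk tissue. Kdr, the main VEGF receptor, stood at 6016, 8492, 5135 and 9586 in non-astrocytes, against 601, 573, 676 and 704 in bulk tissue. The groups were well apart, at 3.47 ± 0.18 on the log2 scale (11.1-fold, adjusted p = 6.94e-10). Flt1, a second VEGF receptor (3.39), Tek, the angiopoietin receptor (2.85), Slco1a4, an organic anion transporter (2.93), and Emcn, a capillary and venous sialomucin (3.70), were also called. The transporters and junction proteins of the blood-brain barrier went the same way in 15 of 15 cases (median 2.28). Abcb1a, the drug efflux pump P-glycoprotein, stood at 2576, 2395, 2689 and 2670 in non-astrocytes, against 291, 285, 361 and 233 in bulk tissue (8.90-fold). Slc22a8, an organic anion transporter, was 3.58 higher on the log2 scale and Slc16a1, a monocarboxylate transporter, 2.85.

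Mural cells, the pericytes and smooth muscle of the vessel wall, had a median log2 difference of 4.50, with 14 of 15 markers higher. Rgs5, a regulator of G protein signalling that marks pericytes, stood at 180470, 215130, 256470 and 198860 in non-astrocytes, against 6570, 6946, 8520 and 6249 in bulk tissue. It was higher in every library, with the libraries of each group close together (4.91 ± 0.14, adjusted p = 8.92e-12). The smooth muscle actin gene Acta2 (5.01), the pericyte potassium channel subunit Abcc9 (4.50) and vitronectin, Vtn (4.47), were also called. Notch3, a receptor of arterial smooth muscle whose exons overlap Gm17276, was 3.91 higher. Cnn1, a contractile protein of mature smooth muscle, was the 1 marker not called (0.08).

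Fibroblast and matrix genes were less uniform. Of 12 fibroblast markers 9 were higher and 1 lower (median 3.46). Col3a1, a fibrillar collagen, stood at 3168, 5824, 2545 and 3241 in non-astrocytes, against 186, 106, 159 and 126 in bulk tissue, without overlap (24.8-fold, adjusted p = 3.76e-10). Dcn, the proteoglycan decorin (16-fold higher), Col1a2, a chain of type I collagen (3.70), and Igf2, a growth factor of meningeal cells whose exons overlap Igf2os (3.28), were higher. Ccn3, a matricellular protein, went the other way, with a mean of 68.8 in non-astrocytes and 1059 in bulk tissue (-4.02). Of 16 extracellular matrix genes 15 were higher (median 3.53), with the basement membrane genes Nid1 at 4.26 and Nid2 at 4.13, the second overlapping Rtraf. Col5a1, a minor fibrillar collagen, was not called (0.16), with 1.24 in upper layers and -0.91 in deep layers taken alone.

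**Figure D2:**
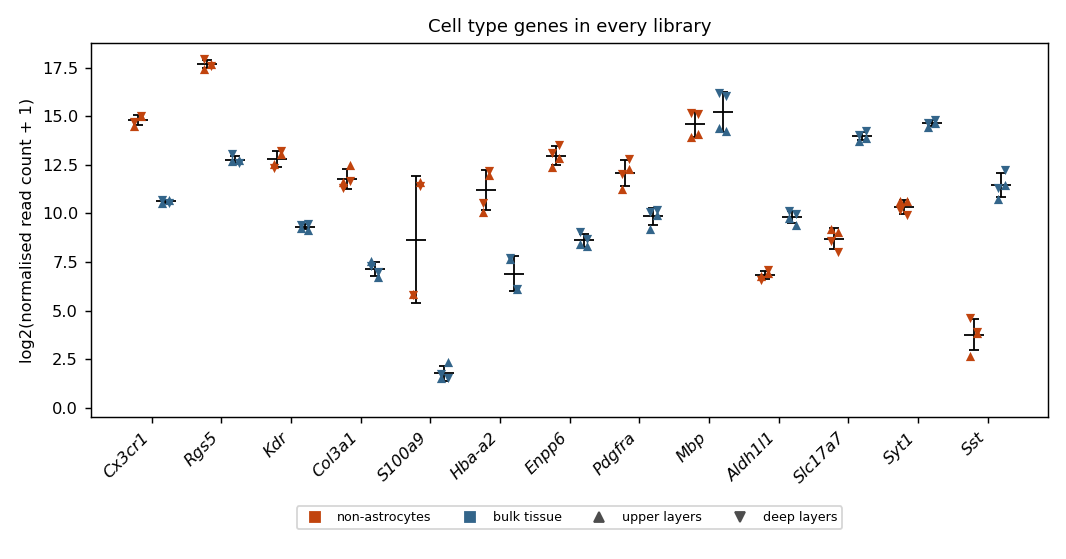
Levels of cell type genes in each library (y axis, log2(normalised read count + 1)), non-astrocytes left and bulk tissue right for each gene; triangles are libraries, pointing up for upper and down for deep layers, and bars give the mean ± SD of the log2 values over 4 libraries. Cx3cr1, Kdr and Rgs5 lie above bulk tissue in every non-astrocyte library, and Syt1, Slc17a7 and Aldh1l1 lie below it in every one.

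Along the oligodendrocyte lineage the lists of successive stages gave different counts. Of 11 tested precursor markers 9 were higher and 1 lower (median 2.10), with sums of 24874 to 52828 in non-astrocytes and 10873 to 14698 in bulk tissue. Cspg4, the proteoglycan NG2, was 3.51 higher on the log2 scale, Vcan, the proteoglycan versican, 2.99, Tnr, tenascin-R, 2.29, and Sox10, a transcription factor of the whole lineage, 2.22. Pdgfra, the receptor that drives precursor division, was added after its values were seen, and stood at 2414, 5036, 4188 and 7072 in non-astrocytes, against 587, 972, 1086 and 1158 in bulk tissue. Its exons overlap Mir7025, and its libraries did not overlap between the groups (2.24 ± 0.23). Cspg5, neuroglycan C, was lower (-1.53), and Pcdh15, a protocadherin, was not called (-0.11).

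Newly formed oligodendrocytes were concentrated throughout, with 11 of 11 tested markers higher (median 2.71). Enpp6, a choline phosphodiesterase of cells about to myelinate, stood at 5431, 7295, 8850 and 11947 in non-astrocytes, against 343, 320, 532 and 404 in bulk tissue. The lowest non-astrocyte value was many times the highest bulk value (20.5-fold, adjusted p = 2.34e-11). Bmp4, a secreted growth factor whose exons overlap Gm15217 (3.39), Itpr2, a calcium release channel (2.80), and Tcf7l2, a Wnt effector (2.71), were higher too.

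Myelin genes did not follow. Of 16, 7 were higher (43.8%) and 2 lower (12.5%), against 32.4% and 33.0% of all genes tested, with a median of -0.15. Without a layer term 3 were higher and 0 lower. In upper layers alone 7 were higher and 0 lower, and in deep layers alone 5 were higher and 2 lower. Of all 21756 genes, 5166 were higher and 5468 lower in upper layers alone, and 6320 higher and 6205 lower in deep layers alone. Mbp, myelin basic protein, whose mRNA is carried out into the myelin sheath, was lower at 15698, 17643, 36496 and 35915 in non-astrocytes, against 21890, 19669, 76246 and 67847 in bulk tissue (-0.65 ± 0.15, adjusted p = 0.00164). Its values overlapped between the groups over all 8 libraries, and within each layer they did not. Mobp, another mRNA found in sheaths, was also lower, with 2742, 645, 9455 and 3723 in non-astrocytes against 4354, 4516, 17119 and 13945 in bulk tissue (-1.56 ± 0.48, adjusted p = 0.0245). The part of mRNA location in these results was not tested. Mog, a protein of the outer sheath, was not called, with a 95% interval of -0.36 to 0.48. Ugt8a, the galactolipid synthesis enzyme (1.46), Trf, transferrin (1.51), Cnp, a phosphodiesterase of myelinating cells (0.92, exons overlap Dnajc7), Cldn11, a junction protein of the sheath (1.01), and Ppp1r14a, a phosphatase inhibitor (1.58), were higher. Both lower calls were lost with total read scaling, that of Mobp also with edgeR, and the list had 1 to 5 lower calls when a single library or a bulk number was left out.

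Astrocyte genes were depleted but not absent. All 20 astrocyte markers were lower in non-astrocytes (33.0% of all genes were), and 19 were with total read scaling. The median was -2.35. Aldh1l1, the folate enzyme whose promoter drives the reporter, stood at 109, 123, 94.7 and 133 in non-astrocytes, against 885, 681, 1116 and 987 in bulk tissue. The non-astrocytes thus kept 12.5% of the bulk level (-2.97 ± 0.18, adjusted p = 3.08e-09), while sorted astrocytes averaged 3694. Its exons overlap Gm15756. Aldoc, an aldolase of astrocytes, kept 6.15% of bulk (-4.03). Mlc1, a membrane protein of endfeet (-3.46), Ntsr2, a neurotensin receptor (-2.96), and Gjb6, connexin 30 (-2.30), differed less than Aldoc. Among 14 genes of glutamate and potassium uptake 11 were lower and 1 higher (median -1.50). Slc1a2, the main glutamate transporter, whose exons overlap Gm13872, was 8.37-fold lower, Slc6a11, a GABA transporter, differed by -2.35 and Atp1b2, a sodium pump subunit, by -1.76, and Slc38a3, a glutamine exporter, was the member that was higher (0.62).

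Neuronal transcripts were strongly depleted. All 17 general neuronal markers were lower, with a median of -4.62, and their sum was 12319 to 20487 in non-astrocytes against 339980 to 466490 in bulk tissue, or 4.41% of bulk. Slc17a7, the vesicular glutamate transporter of excitatory cells, stood at 581, 533, 376 and 262 in non-astrocytes, against 13554, 15303, 17035 and 19151 in bulk tissue (38.5-fold lower, -5.27 ± 0.21, adjusted p = 5.11e-11). Syt1, the calcium sensor of transmitter release, stood at 1576, 1619, 1160 and 966 in non-astrocytes, against 22724, 25468, 26075 and 28834 in bulk tissue (19.7-fold lower). No neuronal marker overlapped between the groups, and 60.1% of all genes tested did not overlap. Camk2a, a kinase of the postsynaptic density, kept 2.09% of bulk, Nefl, a neurofilament subunit whose exons overlap Nefm, differed by -5.15 on the log2 scale, Syp, the vesicle protein synaptophysin, whose exons overlap Gm14703, by -4.72, and Map2, a dendritic cytoskeletal protein whose exons overlap Gm10558, by -3.22.

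Syn1 encodes synapsin, which tethers synaptic vesicles. It stood at 1126, 1132, 617 and 626 in non-astrocytes, against 21935, 30493, 21674 and 26764 in bulk tissue, without overlap (29.8-fold lower; its exons overlap Araf). Its promoter is shown because it holds TTCAGCACC, the left part of the RE1 element bound by REST, a repressor of neuronal genes outside neurons. The capitals mark that word, which starts 232 bases before the start of the gene, in chrX:20920919-20921168 on the minus strand (GRCm38.p6, RefSeq).
Syn1: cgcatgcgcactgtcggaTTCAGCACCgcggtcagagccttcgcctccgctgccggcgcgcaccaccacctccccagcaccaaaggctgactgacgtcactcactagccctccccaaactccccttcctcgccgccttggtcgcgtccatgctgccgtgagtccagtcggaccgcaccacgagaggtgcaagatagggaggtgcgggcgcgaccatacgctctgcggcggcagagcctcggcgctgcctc
The word, also chosen after the values were seen and searched on both strands, stood in 54 of 13375 promoters (0.404%), in 7 of 312 genes at least 16-fold lower (2.24%) and in 1 of 291 at least 16-fold higher (0.344%). No promoter held more than 1 of the 3 motifs searched in overlapping positions.

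Interneuron transcripts were depleted as well. All 20 interneuron genes were lower (median -4.24). The peptide gene Sst, somatostatin, stood at 5.37, 13.5, 23.5 and 13.6 in non-astrocytes, against 1726, 2862, 2528 and 4892 in bulk tissue, which left 0.466% of bulk (207-fold lower, adjusted p = 4.94e-11). The calcium-binding protein gene Pvalb (-5.92) and the peptide genes Npy (-6.45) and Vip (-5.52) were also lower, the 3 being named after their values were seen. Gad1, which makes GABA, fell by 4.25, Lamp5, a membrane protein of neurogliaform cells, by 4.88, and Kcnc1, a potassium channel of fast-spiking cells, by 4.08. Adarb2, an RNA editing family member of caudally derived interneurons, differed by -1.03.

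Genes used to mark cortical layers gave mixed answers. Of 16 upper layer genes 14 were lower and 1 higher (median -2.41). Of 20 deep layer genes 12 were lower and 4 higher (median -1.79), against 33.0% lower and 32.4% higher of all genes tested. The counts of the deep layer list depended on the layer. In upper layers alone 10 were lower and 8 higher (median -1.06), and in deep layers alone 15 were lower and 4 higher (median -2.42). For the upper layer list these counts were 14 and 1 in upper layers and 12 and 1 in deep layers. Of all 21756 genes tested, 5468 were lower and 5166 higher in upper layers alone, and 6205 lower and 6320 higher in deep layers alone. Fezf2, a transcription factor of subcortical projection neurons, stood at 3.84, 0.9, 22.7 and 28.2 in non-astrocytes, against 97.7, 60.1, 1348 and 1327 in bulk tissue, so the deep layer excess was seen in both groups at very different levels. Tbr1, a transcription factor of corticothalamic neurons (-4.53), and Ntng2, a netrin-G ligand whose exons overlap 6530402F18Rik (-2.86), were lower. Among upper layer genes the transcription factor Lhx2 (-3.48), the exchange factor Rasgrf2 (-3.39), the potassium channel Kcnh5 (-2.89) and the transcriptional cofactor Lmo4 (-2.45) were lower. Ccn2, a growth factor-like matrix protein whose exons overlap Gm15270 (3.21), Sla, an adaptor protein (3.72), Nxph4, a neurexophilin (3.01), and Sulf1, a heparan sulfatase (1.11), were the 4 deep layer genes that were higher, and Stard8, a GTPase-activating protein (1.67), the upper layer gene. Ccn2 and Sulf1 are also genes of vessel and meningeal cells, and Sla of lymphocytes and microglia. The part of these cells in the higher calls was not tested. Of 9 tested markers of immature neurons 6 were lower and 2 higher (median -1.55): Dcx, a microtubule protein of migrating neurons, differed by -1.96, the interneuron-lineage noncoding RNA Dlx6os1 by -5.04, the microtubule regulator Stmn1 by -2.84 and the tubulin Tubb2b by -1.85, and Sox4, a transcription factor of immature cells, was 1.04 higher. Of 6 tested ependymal and choroid plexus genes 2 were lower and 2 higher, each 33.3%, near the shares of all genes tested (33.0% lower and 32.4% higher). The lower ones were Foxj1, the regulator of motile cilia (-2.08), and Rsph1, a cilium component (-2.74). The higher ones had low levels, Clic6, a chloride channel protein, with 10.5 to 35.5 in non-astrocytes and 0 to 3.52 in bulk tissue, and Dnah11, a cilium dynein whose exons overlap Cdca7l, with 13.8 to 30.5 in non-astrocytes and 0.92 to 7.01 in bulk tissue.

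Every synaptic and excitability group went down. All 20 synaptic vesicle and release genes (median -4.14), all 20 postsynaptic genes (-4.10) and all 18 voltage-gated channel genes (-3.71) were lower. Cplx1, complexin, which clamps vesicle fusion, differed by -5.91 on the log2 scale, Rims1, an active zone scaffold, by -4.97, Cplx2, the second complexin, by -4.39, Vamp2, the main vesicle fusion protein, by -3.93, and its relative Vamp1 by -1.37. Postsynaptic scaffolds included Shank1 (-5.63, exons overlap 1700008O03Rik), Shank2 (-4.58) and Dlg4, known as PSD-95 (-4.14), while the AMPA receptor subunit Gria2 differed by -1.16. Among channels, Kcnab2, an accessory potassium channel subunit whose exons overlap Gm16334, differed by -5.08, Scn8a, a sodium channel of the axon initial segment, by -3.72, Cacna1e, an R-type calcium channel, by -3.03, and Kcna1, a potassium channel of axons, by -1.28. Of 9 noncoding RNAs of neurons 8 were lower (median -4.25), with Mir124a-1hg, a host gene of the neuronal microRNA miR-124, at -4.98, Pantr1, which lies beside the neural factor gene Pou3f3, at -3.89, Rian, an imprinted noncoding RNA, at -3.43, and Miat at -3.10.

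Ranked by size among well-expressed genes without overlap, the lower end was neuronal. After Sst came Stac2 (-6.13), a channel-binding adaptor, Cplx1, Kif5a (-5.75), a kinesin of axonal transport, and Arc, an activity-regulated gene of dendrites. They were followed by Hpcal4 (-5.67), a calcium sensor, Camk2a, Hrh3 (-5.65), a histamine receptor whose exons overlap Gm17180, Ddn (-5.63), dendrin, whose exons overlap B130046B21Rik, Shank1, Scrt1 (-5.56), a neuronal transcription factor, and Dlgap3 (-5.55), a postsynaptic scaffold. Arc stood at 114, 105, 101 and 113 in non-astrocytes, against 6140, 4508, 6699 and 5852 in bulk tissue (52.7-fold lower, adjusted p = 4.05e-12).

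The first 12 genes at the upper end of the same ranking included genes of leukocytes and microglia, and all 20 microglial markers were higher in the same libraries. First was Rgs1, a regulator of G protein signalling in leukocytes, at 6660, 4848, 7118 and 4061 in non-astrocytes, against 5.53, 5.01, 4.70 and 9.24 in bulk tissue. All 4 bulk libraries were near 0 and all 4 non-astrocyte libraries far above them (799-fold, 9.64 ± 0.24, adjusted p = 4.05e-12). As its bulk values were all under 10, Rgs1 could be tested only through the non-astrocytes. Ccrl2, an atypical chemokine receptor, was 245-fold higher and Cd83, an activation antigen of myeloid cells, 162-fold. Zfp36, tristetraprolin, which destabilises cytokine mRNAs, stood at 23245, 14230, 18776 and 9156 in non-astrocytes, against 112, 129, 136 and 139 in bulk tissue (119-fold). Hspa1a, the inducible HSP70, stood at 2905, 5373, 2674 and 4045 in non-astrocytes, against 37.8, 39.1, 30.6 and 32.3 in bulk tissue (101-fold). Genes with overlapping libraries were left out of the ranking, so the lack of overlap in these genes was set by the rule. The near-identical copy Hspa1b (5.79), the small GTPase Gem (5.68), the costimulatory receptor Cd86 (5.45), the adhesion molecule Icam1 (5.41), the NF-kappaB inhibitor Tnfaip3 (5.40), the innate receptor Tlr13 (5.38) and the oxysterol receptor Gpr183 (5.37) completed the first 12.

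**Figure D3:**
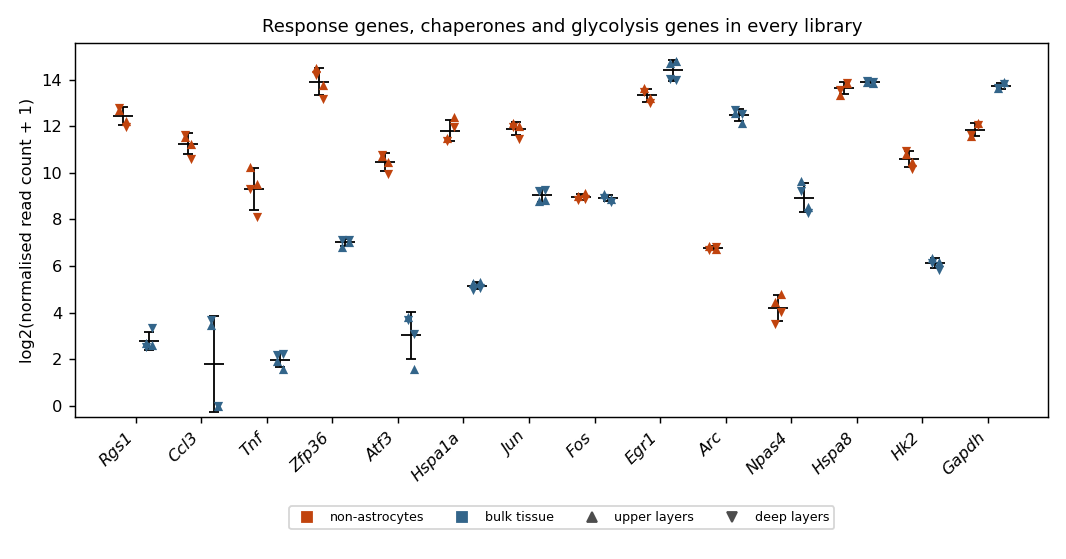
Levels of response genes in each library (y axis, log2(normalised read count + 1)), non-astrocytes left and bulk tissue right for each gene; triangles are libraries, pointing up for upper and down for deep layers, and bars the mean ± SD of the log2 values over 4 libraries. Rgs1, Zfp36 and Hspa1a are over 100-fold apart at the means, Fos lies at the same height in both groups, and Egr1 and Arc lie lower in non-astrocytes.

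Cytokine and NF-kappaB genes were higher where tested. All 17 tested were called higher (32.4% of all genes were), with a median of 5.40. None overlapped between groups (60.1% of all genes did not overlap). Members under 10 in every bulk library, Tnf and Ccl4 among them, could be tested only through the non-astrocytes. They had to differ, so these counts describe these members. Ccl3, a chemokine of activated microglia named after its values were seen, stood at 2971, 2420, 3146 and 1562 in non-astrocytes, against 10.1, 0, 11.8 and 0 in bulk tissue. Its partner Ccl4 had 1110, 744, 1117 and 556 in non-astrocytes and a single read in all bulk libraries, a count ratio of 3606 with a 95% counting interval of 647 to 142470. Tnf, tumour necrosis factor, stood at 1226, 740, 630 and 276 in non-astrocytes, against 2.76, 2.00, 3.52 and 3.70 in bulk tissue (7.32). With the pseudocount of 1 used here, the difference for 10 of the 17 genes was larger than that of every microglial marker, the largest of which was 5.15. Differences of genes near 0 reads in bulk tissue depend on the pseudocount, and the list median was lower with a pseudocount of 10. The count of 10 is therefore uncertain. Microglial markers rose in the same libraries, as given above, and their part in the cytokine result was not tested.

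3 promoters of this list are shown because they hold a form of the NF-kappaB site, GGG followed by any 2 bases and TTTCC, in capitals on either strand. Nfkbia encodes the inhibitor of NF-kappaB that NF-kappaB itself induces, and stood at 4266, 2744, 2882 and 1757 in non-astrocytes, against 177, 164, 143 and 194 in bulk tissue (16.4-fold). Tnfaip3, the deubiquitinase A20 of the same loop, stood at 4327, 3316, 2264 and 1655 in non-astrocytes, against 51.6, 50.1, 77.5 and 78.5 in bulk tissue. Cxcl2, a neutrophil chemokine, stood at 484, 320, 231 and 123 in non-astrocytes and had only 2 reads in the bulk libraries together, a count ratio of 595 (95% counting interval 164 to 4915). The stretches are chr5:90903649-90903898 on the plus strand for Cxcl2, with sites starting 97 and 78 bases before the start, chr12:55492648-55492897 on the minus strand for Nfkbia, with a site at 29 bases, and chr10:19015411-19015660 on the minus strand for Tnfaip3, with a site at 12 bases (GRCm38.p6, RefSeq). GENCODE M21 places the start of Tnfaip3 at 19015657 instead. By that annotation nearly all of the Tnfaip3 stretch, its site included, lies within the gene.
Cxcl2: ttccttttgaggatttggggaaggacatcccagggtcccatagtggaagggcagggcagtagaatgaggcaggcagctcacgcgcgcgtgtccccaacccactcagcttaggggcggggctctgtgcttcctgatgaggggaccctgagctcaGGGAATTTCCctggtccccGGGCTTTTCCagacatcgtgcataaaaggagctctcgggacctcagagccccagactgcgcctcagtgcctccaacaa
Nfkbia: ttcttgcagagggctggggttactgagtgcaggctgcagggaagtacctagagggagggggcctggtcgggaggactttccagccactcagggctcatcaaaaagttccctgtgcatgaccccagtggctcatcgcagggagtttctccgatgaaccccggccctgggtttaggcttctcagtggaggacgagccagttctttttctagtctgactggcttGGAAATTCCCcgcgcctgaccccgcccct
Tnfaip3: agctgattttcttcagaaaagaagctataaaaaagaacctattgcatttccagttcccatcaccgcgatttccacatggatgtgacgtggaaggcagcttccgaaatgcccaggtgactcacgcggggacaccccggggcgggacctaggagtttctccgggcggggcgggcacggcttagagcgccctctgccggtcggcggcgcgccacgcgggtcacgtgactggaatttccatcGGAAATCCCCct
Of 12 members of the list with a promoter sequence 4 held the site, Cxcl1 being the other one, against 226 of 13375 promoters (1.69%), 12 of 291 genes at least 16-fold higher (4.12%) and 6 of 312 at least 16-fold lower (1.92%). The motif was chosen after the values were seen, and the matches are a description.

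Immediate early genes were split. Of 20, 13 were higher and 5 lower, with a median of 1.34. Atf3, a stress-induced transcription factor, stood at 1671, 1418, 1730 and 978 in non-astrocytes, against 12.9, 2.0, 11.8 and 7.39 in bulk tissue (7.44 ± 0.40). Ier3, an NF-kappaB target that protects from apoptosis (4.43), Klf4, a Krüppel-like transcription factor (2.97), Junb, an AP-1 subunit whose exons overlap Prdx2 (3.47), and Jun, whose exons overlap Junos (2.87), were higher as well, Jun being named after its values were seen. Fos was not called: it stood at 513, 567, 457 and 469 in non-astrocytes, against 548, 477, 489 and 430 in bulk tissue (0.05, 95% interval -0.24 to 0.33, adjusted p = 0.779). With total read scaling Fos was called at 0.42. Egr1, a zinc finger factor induced by synaptic activity, was lower, with 12924, 9677, 11328 and 8279 in non-astrocytes, against 27193, 29078, 17028 and 16408 in bulk tissue, without overlap (2.08-fold lower, adjusted p = 3.84e-05). Fosl2, an AP-1 subunit (-1.75), and Egr2, a relative of Egr1 (-1.33), were lower too, and the orphan receptor Nr4a1 was not called (-0.13, interval -0.44 to 0.19).

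Genes that neurons switch on with activity fell, with 13 of 15 lower (86.7%, against 33.0% of all genes tested) and a median of -3.39. Besides Arc they included Homer1, a postsynaptic scaffold with an activity-induced form (-3.01), Vgf, a secreted peptide precursor (-4.62), Scg2, secretogranin II (-4.29), Npas4, a neuron-specific transcription factor (-4.73), and the growth factor Bdnf (-4.16), the last 2 named after their values were seen. Gadd45b, a stress and DNA demethylation factor (3.34), and Ccn1, a matricellular protein (2.53), were the 2 higher members. The general neuronal list fell in the same libraries, to 4.41% of bulk in sum, and its part in this result was not tested.

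The sorted astrocytes, which passed through the same papain step and were compared with no test here, had lower means than the non-astrocytes for 6 response genes named above, picked after their values were seen. The summed level of the neuronal activity list went the other way, with a mean of 4254 in non-astrocytes and 5246 in astrocytes. Mean levels were 16352 ± 6047 in non-astrocytes and 546 ± 106 in astrocytes for Zfp36, and 3749 ± 1237 in non-astrocytes and 73.2 ± 32.8 in astrocytes for Hspa1a (SD, n = 4 and 6). Rgs1 averaged 62.3, Atf3 21.2, Fos 93.7 and Egr1 496.5 in astrocytes. For Fos and Egr1 the astrocyte mean lay under every non-astrocyte and every bulk library.

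Among 14 heat shock genes, the HSP70 genes Hspa1a and Hspa1b included, 5 were higher and 4 lower (median -0.05). These shares, 35.7% higher and 28.6% lower, were near those of all genes tested (32.4% and 33.0%), and with total read scaling 7 were higher and 2 lower. Hspb1, a small heat shock protein, was 3.19 higher on the log2 scale and Hsph1, an HSP110 chaperone, differed by -1.41, while the constitutive chaperone Hspa8, named after its values were seen, had an interval of -0.53 to 0.05. Among 12 genes of p53 and the unfolded protein response 8 were higher (66.7%) and 2 lower (16.7%), against the same shares of all genes (median 0.74). Hmox1, haem oxygenase (3.93), Gadd45a, a growth arrest gene (2.15), Hspa5, the endoplasmic reticulum chaperone BiP (1.27), Ddit3, known as CHOP (1.25), and Cdkn1a, the cell cycle inhibitor p21 (1.11), were higher, and Chac1, a glutathione-degrading enzyme, was lower (-2.32).

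**Figure D4:**
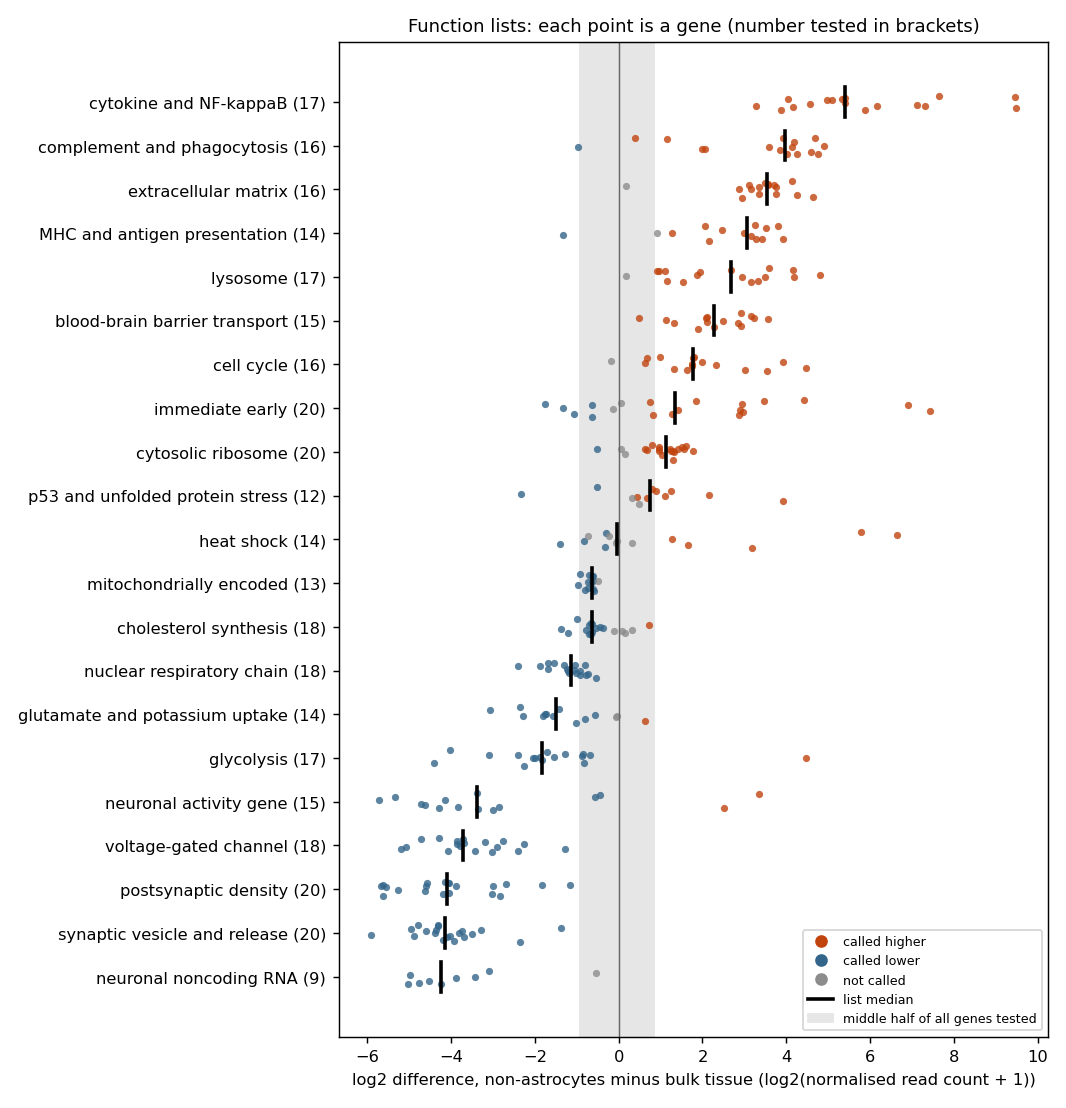
Log2 difference between non-astrocytes and bulk tissue (x axis, log2(normalised read count + 1)) for the tested members of 21 function lists, 1 point per gene, with medians as bars and the middle 50% of all genes tested as a grey band. The cytokine list has the highest median (5.40), synaptic lists lie near -4.1, and the heat shock list is centred at -0.05 with points on both sides.

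Complement, antigen presentation and lysosomal genes were mostly higher, in the libraries where all 20 microglial markers (median 4.35) and all 10 macrophage markers (median 3.06) were higher, and the part of these cells was not tested. Complement and phagocytosis genes were higher in 15 of 16 cases (median 3.97), with the complement anaphylatoxin receptor C3ar1 at 4.91, the integrin chain Itgb2 at 4.68 and the Fc receptor Fcgr3 at 4.58. Megf10, an engulfment receptor of astrocytes, was the lower one (-0.98). Of 14 genes of antigen presentation 12 were higher and 1 lower (median 3.07). B2m, the light chain of MHC class I, averaged 16043 in non-astrocytes and 1500 in bulk tissue, and the immunoproteasome subunit Psmb8 was 3.92 higher on the log2 scale, with the class I heavy chains H2-K1 at 3.16 and H2-D1 at 2.15, both of a multigene family whose reads may be shared, whereas Ciita, the class II transactivator, was lower (-1.33). Of 17 lysosomal genes 16 were higher (median 2.69). Ctsd, the protease cathepsin D, was 9.98-fold higher, Laptm5, a lysosomal membrane protein of blood cells, differed by 4.17, but Psap, the sphingolipid activator precursor made by most brain cells, was not called (0.18, interval -0.20 to 0.56).

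Most glycolytic and respiratory chain genes fell, in the libraries where all 17 neuron markers (median -4.62) and all 20 astrocyte markers (median -2.35) were lower, and the part of these cells was not tested. Of 17 glycolytic genes 16 were lower and 1 higher (median -1.83). Eno2, the neuronal enolase, differed by -4.42 on the log2 scale and Pfkm, a phosphofructokinase, by -3.09. Gapdh, often used as a reference gene and named after its values were seen, stood at 3096, 4472, 3133 and 4328 in non-astrocytes, against 12679, 15412, 12686 and 14308 in bulk tissue (3.71-fold lower, exons overlap Iffo1). Hk2, an inducible hexokinase, went against its pathway at 1811, 1425, 1979 and 1162 in non-astrocytes, against 81.1, 71.1, 69.3 and 56.4 in bulk tissue (22.3-fold, adjusted p = 9.24e-11). All 18 nuclear genes of the respiratory chain were lower (median -1.13), with Ndufa4 at -2.39 and the cytochrome oxidase subunits Cox6c at -1.87 (exons overlap Vps13b), Cox7a2 at -1.69 and Cox4i1 at -1.54 (exons overlap Emc8). Of 13 mitochondrially encoded genes 12 were lower (median -0.64), with mt-Co3, a cytochrome oxidase subunit, at -0.98 (adjusted p = 0.00482), mt-Nd3, of complex I, at -0.91, mt-Co2 at -0.80 and mt-Atp6, of the ATP synthase, at -0.73. With total read scaling only 2 of the 13 were called, and leaving out single libraries or a bulk number gave 5 to 13. In upper layers alone 11 were lower (median -0.96), and in deep layers alone 4 (median -0.36). A fit of 6 group means over all 14 libraries called 3. Their sum was 556880, 1280000, 1245000 and 1486200 in non-astrocytes, so 1 upper layer library was well below the rest, against 1576900 to 1945600 in bulk tissue.

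Ribosome and cell cycle genes were mostly higher and cholesterol synthesis genes mostly lower. Of 20 cytosolic ribosome genes 17 were higher and 1, Rps2, lower (median 1.13), with Rpl5 3.40-fold higher (exons overlap Fam69a), Rps9 at 1.61, Rpl7 at 1.55 and Rpl10 at 1.52. The lower call of Rps2 was lost with total read scaling, in upper layers alone and with the layers of a number averaged. Ribosomal protein genes have many processed pseudogenes, so their counts are uncertain. Of 18 cholesterol synthesis genes 13 were lower and 1 higher (median -0.64). Fdft1, squalene synthase, whose exons overlap Ctsb, differed by -1.37 on the log2 scale, Hmgcs1, the HMG-CoA synthase, by -1.20, Pmvk, a mevalonate pathway kinase, by -0.77, and Ebp, a sterol isomerase, by 0.73. With total read scaling 9 were lower and 4 higher. Of 16 cell cycle genes 15 were higher (median 1.76). Mki67, a marker of dividing cells, stood at 1241, 2259, 1336 and 2557 in non-astrocytes, against 102, 87.1, 139 and 141 in bulk tissue (15.2-fold). The mitotic kinase Bub1 (4.48), the replication helicase subunit Mcm6 (3.55) and the centromere protein Cenpf (1.99) were higher, and Tyms, thymidylate synthase, was not called (-0.19). Dividing cells at this age include precursors, microglia and vessel cells, whose markers rose in the same libraries, and their parts were not tested.

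The comparison was also tested for a difference between layers. The interaction of fraction and layer passed an adjusted p of 0.05 for 18 of 21756 genes (0.0827%), 15 of them with a more positive difference in upper layers and 3 in deep layers, while 1335 had an unadjusted p under 0.05. The count rested on few libraries: it was 42 or 67 without an upper layer non-astrocyte library and 1 to 3 without any 1 bulk library. Of the 7 genes described here, Syt6 passed with each of the 8 libraries left out, and each of the others missed the threshold at least once. Syt6, a synaptotagmin of deep layer neurons whose exons overlap Atg4a-ps, stood at 318 and 394 in upper layer and 315 and 428 in deep layer non-astrocytes, against 62.7 and 77.1 in upper layer and 1923 and 1374 in deep layer bulk tissue. It was thus higher than bulk in upper layers (2.33) and lower in deep layers (-2.14), with a difference of 4.47 between layers (adjusted p = 0.000795). Postn, the matrix protein periostin, stood at 1010, 1370, 1188 and 1096 in non-astrocytes, against 63.6, 46.1, 738 and 545 in bulk tissue. Col6a1, a chain of type VI collagen, stood at 328, 505, 231 and 321 in non-astrocytes, against 228, 131, 1484 and 1218 in bulk tissue.

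The 3 genes on the other side were Stard8, Kitl, the ligand of the receptor Kit, and Nectin3, an adhesion molecule of upper layer neurons. Stard8 stood at 2769, 3513, 2696 and 3090 in non-astrocytes, against 1734, 2130, 511 and 420 in bulk tissue. Kitl stood at 1747, 1703, 2144 and 1933 in non-astrocytes, against 1367, 1237, 444 and 512 in bulk tissue. Nectin3 stood at 1225, 1259, 1187 and 1181 in non-astrocytes, against 3672, 3649, 1143 and 1248 in bulk tissue. In these genes, and in Syt6, Postn and Col6a1, the bulk libraries of the layers were at least 2-fold apart and the non-astrocyte libraries of the layers closer together. Reln, the extracellular glycoprotein reelin, whose exons overlap Gm10475, was the reverse case, with 266 and 263 in upper layer and 60.7 and 64.6 in deep layer non-astrocytes, against 1196 and 1346 in upper layer and 1412 and 1820 in deep layer bulk tissue.

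**Figure D5:**
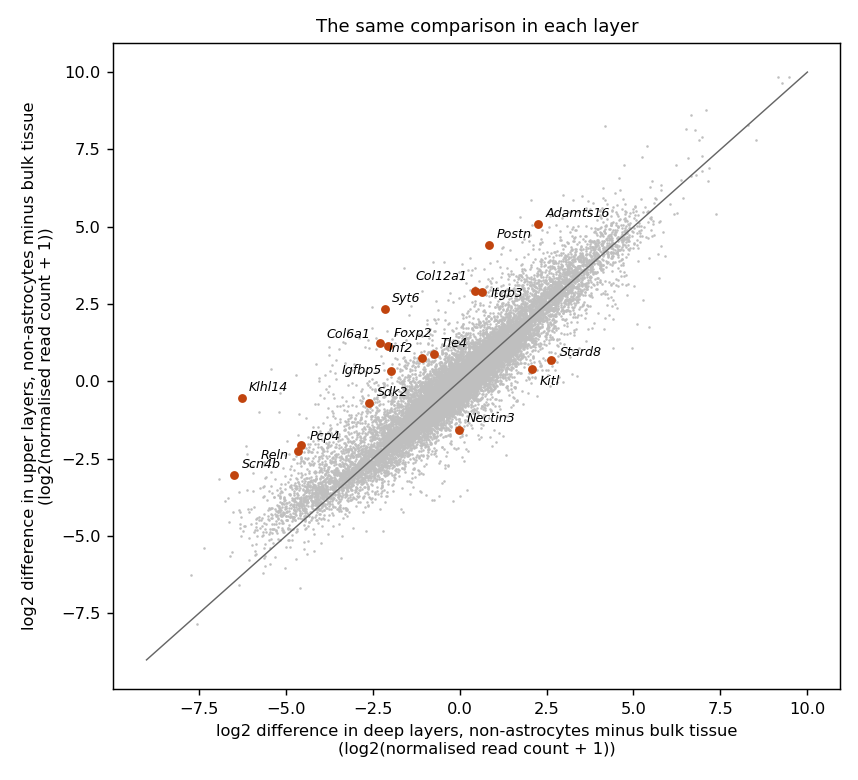
Log2 difference between non-astrocytes and bulk tissue in upper layers (y axis) and deep layers (x axis), both in log2(normalised read count + 1), for all 21756 genes tested; the line marks equal differences, and the 18 genes whose difference differed between layers are named. The 15 genes above the line include Syt6 (2.33 in upper layers, -2.14 in deep layers), and Stard8, Kitl and Nectin3 lie below it.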

How the data were processed

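Total RNA was amplified with NuGEN RNA-Seq V2 and sequenced as single reads, per the labels' protocols. The submitters' processing notes name CASAVA, TopHat2 2.0.11, HTSeq 0.6.1p1, DESeq2 and GRCm38. The deposited values are a signal: as the values themselves show, gene read counts that the authors divided by 1 size factor per library (0.705 to 1.30 over the study). Dividing each library's values by the value of 1 read gave whole reads for 100% of values in every library compared (tolerance 1e-06).

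Genes with a value of at least 10 in at least 2 of the 8 libraries were tested with limma 3.58.1 (trend, robust; R 4.3.3) on log2(value + 1), with layer and fraction as terms, Benjamini-Hochberg adjustment and a threshold of 0.05; the layer interaction used the same scale. Since the values were not raw counts, this was the main test, with edgeR 4.0.16 and DESeq2 1.42.0 on recovered reads as alternatives. The edgeR test called 14100 genes. On simulated data with known changes the limma step was tested first. Counting intervals cover counting error only.

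Members, gene lists and motifs were chosen with earlier results of these data known, and 543 of 556 listed genes passed the filter. A gene that passed only through the group where it is high had to differ, so counts over tested members describe those members. Lists are described by counts and medians, with no list test. Named genes were the 12 of largest difference in each direction (called, not overlapping, mean log2 at least 7), up to 4 members of smallest p per list, 7 fixed markers and the 4 of smallest interaction p in each direction. Adarb2, Alas2, Bdnf, C1qc, Ccl3, Ccn1, Ccn2, Ccn3, Ciita, Cnn1, Col5a1, Cspg5, Cxcl1, Cxcl2, Ddit3, Ebp, Egr2, Fos, Fosl2, Gadd45b, Gapdh, Gria2, Hspa5, Hspa8, Jun, Junb, Kcna1, Map2, Mbp, Megf10, Mobp, Mog, Npas4, Npy, Nr4a1, Nxph4, Pcdh15, Pdgfra, Pou3f3, Ppp1r14a, Psap, Ptprc, Pvalb, Rps2, S100a8, S100a9, Sall1, Slc38a3, Sox4, Sulf1, Tyms, Vamp1, Vip and Vtn were chosen after their values were seen. GENCODE M21 matched 32007 of 32830 genes for chromosome and exon overlap, and RefSeq promoters on GRCm38.p6 were found for 13375 tested genes. A few genes that this rule or the lists hold are not reported here by name. Titles were followed where another label called the upper layer sorted libraries bulk tissue. Replicate numbers did not pair the fractions.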

Additional observations from a re-analysis of the deposited data

Results flagged for a closer look

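In 17 of 444 checks of 4 libraries, the highest or lowest library stood apart from the other 3 past Dixon's 95% critical value, and chance flags about 1 in 20 groups. Among non-astrocytes, the deep layer library numbered 1 was highest for Ccr2 (344.7), Foxj1 (19.4), Homer1 (1046) and Ptprc (2632), the upper layer library numbered 1 lowest for Emcn (1093), and the upper layer library numbered 2 highest for Igf2 (15250). Among bulk libraries, the upper layer library numbered 2 was highest for Bub1 (8.01) and lowest for Ciita (63.1), Ddit3 (131.2), Rps2 (1422) and Rps9 (1717). The upper layer bulk library numbered 1 was lowest for Tbr1 (3361). The deep layer bulk library numbered 1 was highest for Cenpf (191.5) and lowest for Ptprc (51.7), and that numbered 2 was highest for Ndufa4 (5807), Ccl4 (0.924) and Cxcl2 (1.85), where the other bulk libraries had no Ccl4 or Cxcl2 read.

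For 7 genes named in the report the log2 difference between non-astrocytes and bulk tissue differed between upper and deep layers by the interaction test of limma. The difference in upper layers minus that in deep layers was 4.47 for Syt6, 3.57 for Postn, 3.53 for Col6a1 and 2.40 for Reln, and it was -1.94 for Stard8, -1.68 for Kitl and -1.55 for Nectin3.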

How the results depend on the processing

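The number of genes called stayed within 1.5 times of 14220 in every alternative run, from 10634 in the upper layers alone to 15083 with no filter on low values. The range was 13089 to 14613 with each library left out, 6548 to 7250 of them higher and 6541 to 7363 lower. It was 12602 when the layers of a number were averaged, and 11827 and 11803 without the bulk libraries numbered 1 or 2, alternatives chosen after seeing the data. The count of genes that differed between layers moved more, to 125 with DESeq2, 30 with a pseudocount of 10, and 1 to 67 with each library left out. Same-numbered non-astrocyte and bulk libraries did not deviate together (correlations 0.071 in deep and -0.0221 in upper layers), so the numbers give no pairing of the fractions; with the replicate number as a block, 14687 genes were called and 28 differed between layers. Same-numbered non-astrocyte libraries of the layers did deviate together (0.469), and whether they share animals is not given. Directions reversed in a layer taken alone for Col6a1 (1.23 in upper layers), Syt6 (-2.14 in deep layers) and Col5a1 (-0.91 in deep layers), and the cause was not tested. Depth limits the genes near 0 reads in bulk tissue, whose fold changes depend on the pseudocount: the median of the cytokine list was 4.31 with a pseudocount of 10.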
